A study of Columba livia with 19 samples.

Results

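The 150 transcripts described here were those whose level differed most from one wild-type pigeon (Columba livia) to the next in the regrowing feather collar, while recessive red and wild-type birds had similar means. They were taken from 15392 genes counted in 19 birds. Levels are CPM, the counts of a gene per 1000000 counts of its bird. A gene was within the limits when its mean over the 19 birds was at least 5 CPM and not among the most abundant (the highest gene kept had 996 CPM), and when its recessive red mean over its wild-type mean, with 0.5 CPM added to each, was under 0.5 log2 units from 0 in both batches. This left 9019 genes. For each gene the standard deviation (SD) of log2(CPM + 0.5) was taken over the 4 wild-type birds of batch 1 and over the 5 of batch 2 that carry no mutant allele. The smaller of both SDs ranked the genes, and the 150 highest are the members, 1.66% of the genes within the limits. The spread among wild-type birds and the likeness of the phenotype means are therefore given by this choice and are not results.

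Each bird was 1 RNA-seq library of polyadenylated RNA. Secondary flight feathers were plucked, regrown for 9 to 10 days and plucked again, and RNA was taken from the collar within the proximal 4 to 5 mm after the dermal pulp had been discarded. Batch 1, sequenced in 2017, held 4 wild-type birds (WT1 to WT4) and 3 recessive red e1 homozygotes (Mut1, Mut3 and Mut4). Batch 2, collected in 2020, held 5 homozygous wild-type birds (WT00, WT20, WT21, WT23 and WT24), the heterozygous wild-type/e1 bird WT22, called the carrier here, 3 e1 homozygotes (Mut6, Mut11 and Mut12) and 3 e2 homozygotes (Mut5, Mut7 and Mut14). Recessive red birds are Sox10 mutants, per the labels, and all sampled feathers were pigmented. The labels give neither age nor sex nor kinship of the birds.

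The feather collar is the ring of growing epidermis at the base of a regrowing feather. Its keratinocytes divide, move outward and cornify into the barbs of the vane, and melanocytes in it pass pigment to them. It surrounds a vascular dermal pulp. In a bulk sample of such a tissue, fewer cells of a type and less RNA per cell cannot be told apart. Birds also differ by their sex chromosomes: males have a pair of Z chromosomes, females have a single Z and a W, and the dose of most Z genes is only partly balanced between the sexes. The files pair the identifiers of the 150 transcripts with neither gene names nor chromosomes, and 0 of the 15392 identifiers matched the pigeon gene table used here, which holds 22830 genes. Members are therefore named by identifier, no role is given to any of them, markers of the collar, pulp and blood could not be looked up, and the relation of any member to sex or to a cell type was not tested.

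Total counts ranged from 13559606 to 23168538 per bird. The 150 members together took 0.525% of the counts in WT3, the lowest bird, and 1.03% in WT1, the highest. Their mean levels ran from 5.06 to 660 CPM with a median of 27.4 CPM, against a median of 42.2 CPM over all genes within the limits. Counting error was small beside the spread that chose them. It alone would give an SD of log2 counts of 0.077 in the median member and of at most 0.226 in any member, whereas the smaller wild-type SD was 0.512 to 1.16. Over the genes within the limits the median of that smaller SD was 0.142. At the limit of the list, A306_00009722 and A306_00009956 were the last members, at 0.513 and 0.512, and A306_00009563 and A306_00007965 were the first genes left out, at 0.512 and 0.511. The list is thus a slice through a continuous range.

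Members were grouped by the likeness of their profiles over the 9 homozygous wild-type birds, after the mean of each batch had been taken off. Average linkage on correlation, cut into 6 groups, gave a group of 108 members, others of 27 and 11, and left 4 members in groups of 1 or 2. Among the 20 members with the highest spread, 10 were of the group of 108, 8 of the group of 27, 1 of the group of 11 and 1 of none of these. The mean pairwise correlation over the 9 wild-type birds was 0.74 within the group of 108, 0.68 within the group of 27 and 0.65 within the group of 11. It was 0.05 over all genes within the limits. These values come from the birds that formed the groups. In the 9 recessive red birds, which gave no spread to the choice and no profile to the grouping, the mean pairwise correlation after taking off the 3 group means was 0.53, 0.67 and 0.24 in the same order, and 0.03 over all genes within the limits. Cut into 10 groups instead, the largest held 84 members with a mean pairwise correlation of 0.83 in those birds. The group of 108 was loose at its edge, with a lowest correlation of a member with the group mean of 0.22 over the wild-type birds.

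**Figure D1:**
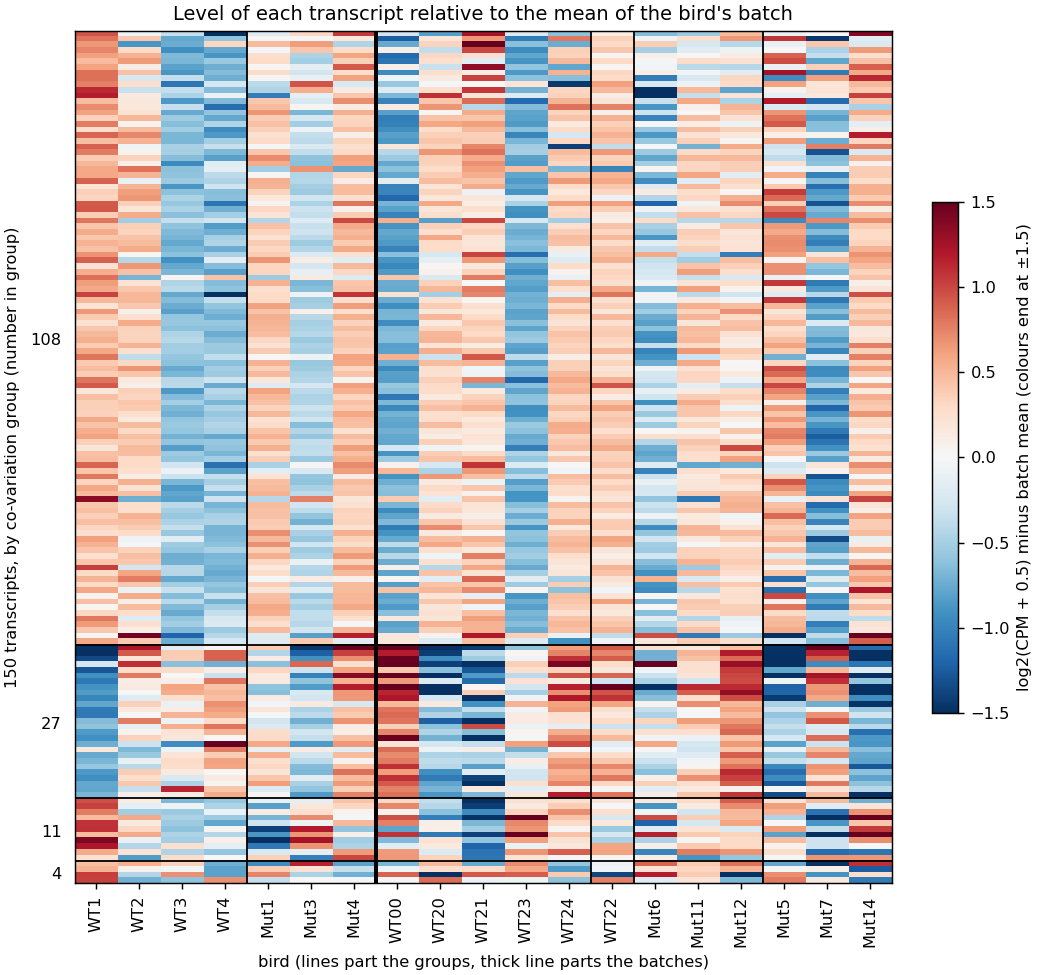
Heat map of the 150 transcripts (rows, by co-variation group) in the 19 birds (columns), as log2(CPM + 0.5) minus the mean of the bird's batch, red above and blue below that mean. Rows of the group of 108 are blue together in WT3, WT4 and Mut3 of batch 1 and in WT00, WT23, Mut6 and Mut7 of batch 2, and the group of 27 shows another order of birds.

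The group of 108 had, in the median of its members, a low and a high level among wild-type birds. A306_00009841, whose wild-type profile was closest to the mean of the group (Pearson r = 0.993 over the 9 homozygous wild-type birds), stood at 215 CPM in WT1, 185 in WT2, 92.3 in WT3 and 88.0 in WT4. In wild type of batch 2 it stood at 87.1 CPM in WT00, 177 in WT20, 192 in WT21, 88.2 in WT23 and 192 in WT24, and the carrier stood at 185 CPM. Thus 2 homozygous wild-type birds of each batch lay at 87.1 to 92.3 CPM and the others at 177 to 215 CPM. The recessive red birds, whose spread had no part in the choice, took the same levels less sharply. A306_00009841 stood at 184 CPM in Mut1, 118 in Mut3 and 206 in Mut4. It stood at 100 CPM in Mut6, 191 in Mut11 and 168 in Mut12 among e1 birds of batch 2, and at 220 CPM in Mut5, 93.9 in Mut7 and 182 in Mut14 among e2 birds. A single bird of each recessive red group was low, so that the 3 groups had overlapping ranges.

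A306_00007898, the next in likeness to the mean of the group (r = 0.992), had the same birds low and high at a lower level. Its wild-type values were 61.8, 57.7, 26.2 and 23.8 CPM in WT1 to WT4. In batch 2 they were 20.4 CPM in WT00, 38.7 in WT20, 47.4 in WT21, 19.4 in WT23 and 38.8 in WT24. Mut3 at 38.8 CPM lay below Mut1 at 53.1 and Mut4 at 52.4. Mut6 at 30.7 CPM lay below Mut11 at 57.6 and Mut12 at 44.8, and Mut7 at 22.8 CPM lay below Mut5 at 60.0 and Mut14 at 46.7.

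Over the whole group of 108, the median deviation from the batch mean summarised each bird on the log2(CPM + 0.5) scale. In batch 1 it was 0.49 in WT1, 0.34 in WT2, 0.35 in Mut1 and 0.42 in Mut4, and -0.61 in WT3, -0.60 in WT4 and -0.40 in Mut3. In batch 2 the medians of WT20, WT21, WT24, the carrier, Mut5, Mut11, Mut12 and Mut14 lay between 0.25 and 0.44. Those of WT00, WT23, Mut7 and Mut6 were -0.75, -0.70, -0.70 and -0.42. No bird had a median between -0.40 and 0.25, a gap that both phenotypes and both batches share. For the homozygous wild-type birds it follows in part from the choice and the grouping. The recessive red birds and the carrier gave no spread to the choice and no profile to the grouping. Among the wild-type birds that formed the group, WT1 was above the batch mean in all 108 members, and WT3, WT4, WT23 and WT00 were below it in 107, 106, 104 and 91. WT2, WT20, WT21 and WT24 were above it in 92, 90, 98 and 90. The counts of the recessive red birds overlapped with these. Mut6, Mut3 and Mut7 were below the mean in 96, 94 and 93 members, and the birds at the high level were above it in 82 (Mut11) to 102 (Mut4). Over all genes within the limits the median deviation of a bird lay between -0.11 (Mut6) and 0.07 (Mut4).

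**Figure D2:**
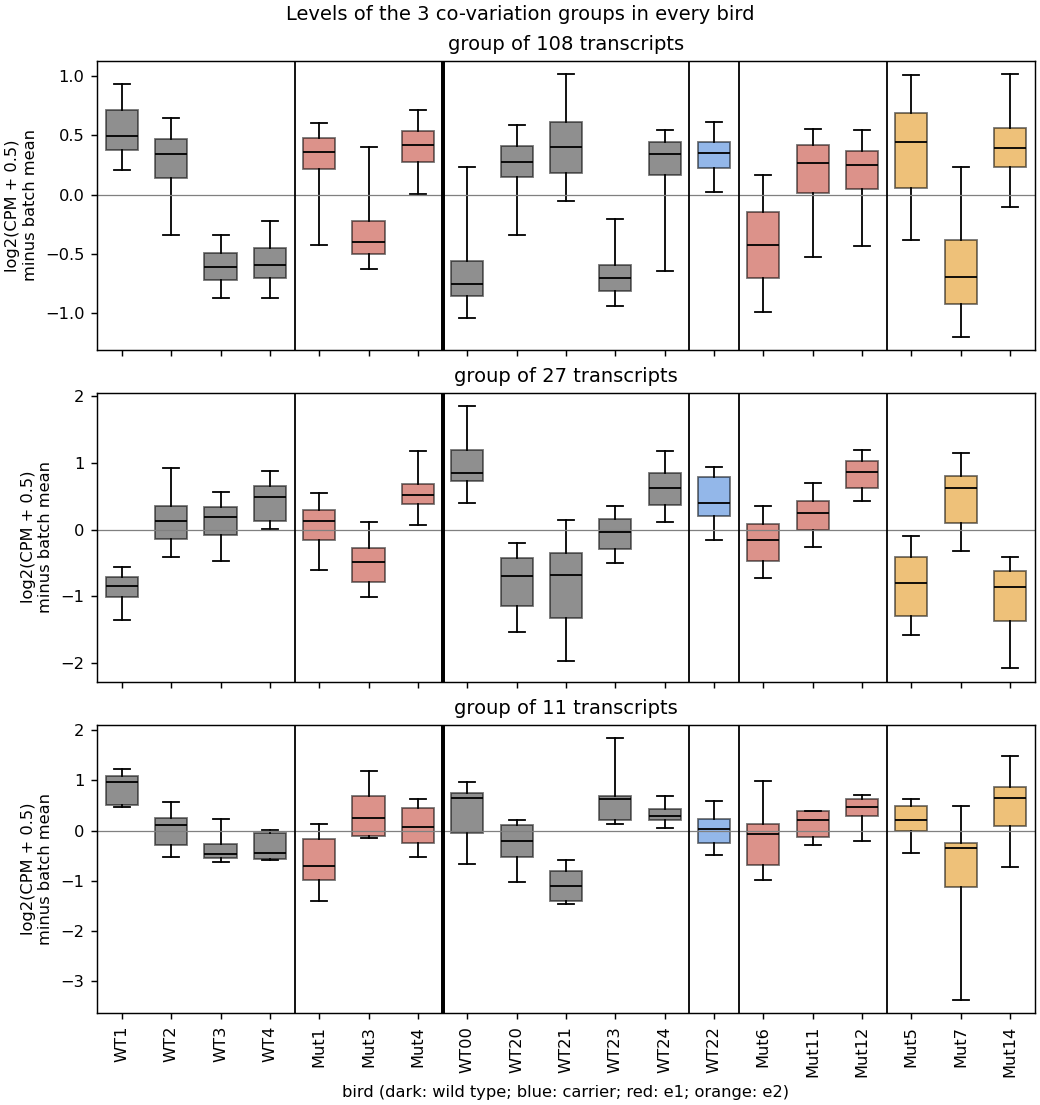
Box plots of log2(CPM + 0.5) minus the batch mean in every bird for the groups of 108, 27 and 11 transcripts (box: quartiles with the median; whiskers: percentiles 5 and 95; dark wild type, blue carrier, red e1, orange e2). In the group of 108 the medians lie either at 0.25 to 0.49 or at -0.75 to -0.40, while those of the group of 27 range from -0.87 to 0.86 with another order of birds. The homozygous wild-type birds shown were used to choose and to group the transcripts.

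Which bird was low in each recessive red group can be counted member by member. Mut3 was the lowest of its group in 94 of the 108 members (87.0%), Mut6 in 89 (82.4%) and Mut7 in 90 (83.3%). Over all genes within the limits these birds were lowest in 38.9%, 51.5% and 29.8%. All 3 were lowest together in 77 of the 108 members (71.3%) and in 336 of the 9019 genes within the limits (3.73%). This combination was taken as the commonest in the group. The commonest over the genes within the limits was Mut3, Mut6 and Mut5, at 17.5%. Ordering the birds of a batch gave the same picture with wild type included. Mut3, WT3 and WT4 were all below the other 4 birds of batch 1 in 90 of the 108 members (83.3%), against 4.95% of the genes within the limits. Mut6, Mut7, WT00 and WT23 were all below the other 8 birds of batch 2 in 70 members (64.8%), against 2.27%. Each split was taken as the commonest in the group of 108, which raises its share there. The wild-type part of these counts follows from the choice of the members and from the grouping. Total counts of WT3, WT4 and Mut3, 20813602 to 23168538, were the highest of batch 1. In batch 2 those of WT00, WT23, Mut6 and Mut7, 15170832 to 17305314, lay within the range of the other birds. The part of depth in the pattern of batch 1 was not tested.

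**Figure D3:**
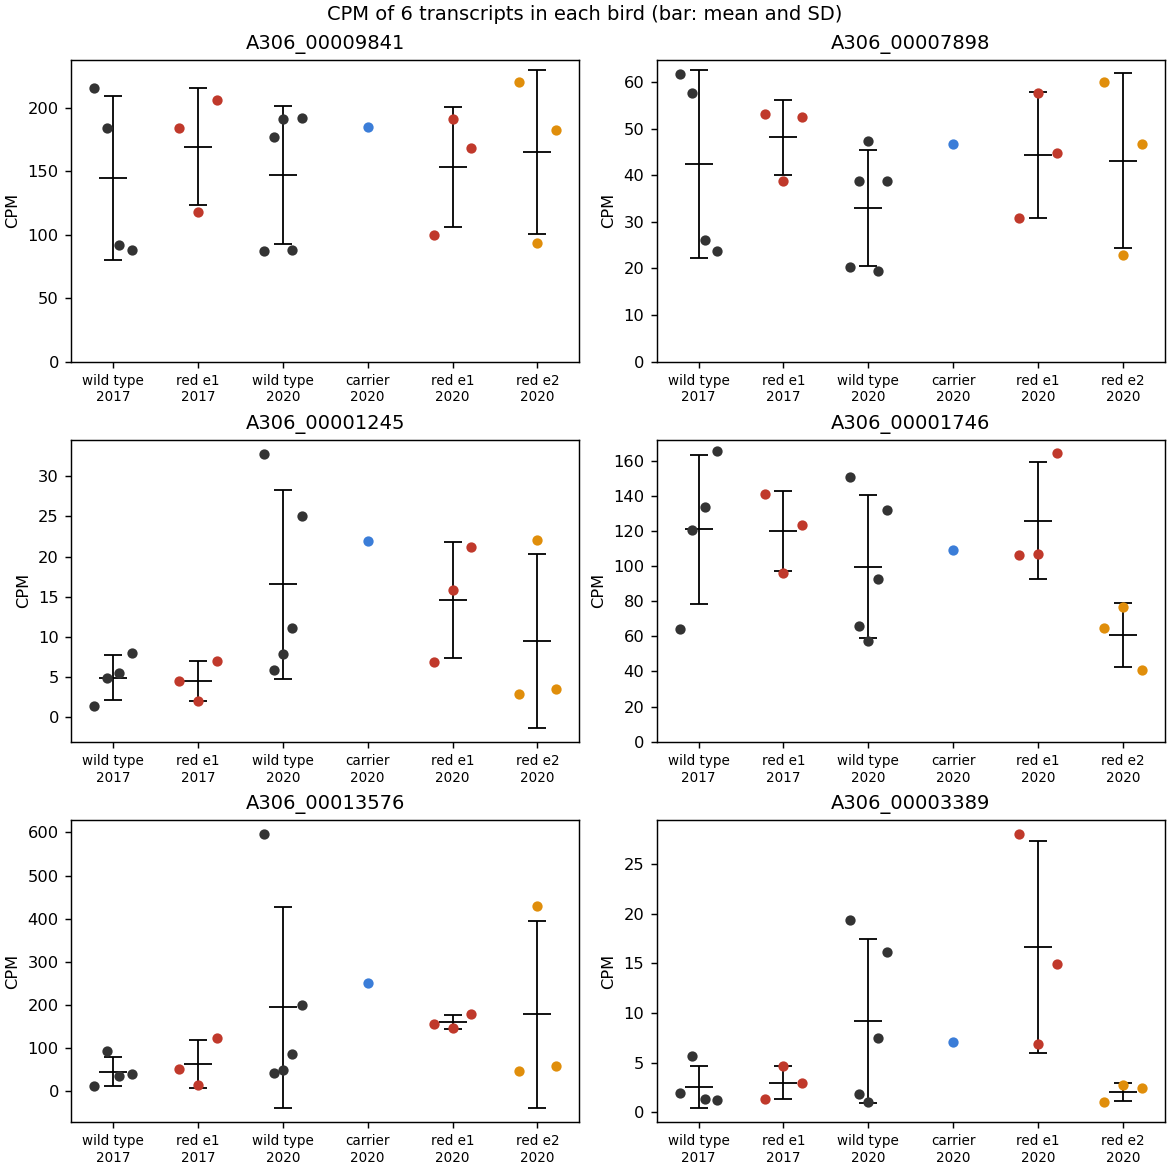
CPM of 6 members in each bird, by group (dots: birds; bars: mean and SD; 1 carrier, without a bar). A306_00009841 and A306_00007898 of the group of 108 have lower and higher birds in each group with replicates. In both, Mut3 lies between the low and high wild-type birds of batch 1. A306_00001245, A306_00001746, A306_00013576 and A306_00003389 of the group of 27 vary over a wider range relative to their own level.

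The identifiers of the group of 108 were close together in their numbering, a property that had no part in the choice. In 71 of the 108 (65.7%) another member of the group lay within 10 numbers, whereas 8.49% of the genes within the limits lay that close to a member of the group. In the groups of 27 and 11 members the like counts were 2 (7.41%) and 2 (18.2%). Of the genes within the limits, 3.5% lay that close to a member of the group of 27 and 1.14% to one of the group of 11. In 6 stretches, each with 4 or more members of the group no more than 20 numbers apart, lay 46 of the 108. The longest by members ran from A306_00007930 to A306_00007991 and from A306_00010517 to A306_00010563, with 12 members each. The numbers are not positions, and whether near numbers are near places in the genome was not looked up here. The 6 stretches also held 117 genes within the limits that were not members, because their wild-type spread was smaller. In 70 of these 117, Mut3, Mut6 and Mut7 were all the lowest of their groups, against 2.92% of the 8869 genes within the limits that were not members. Their median deviation from the batch mean was -0.34 in Mut3, -0.45 in Mut6 and -0.34 in Mut7, and between 0.03 and 0.29 in the other recessive red birds. Over all genes within the limits it was 0.03 in Mut3, -0.11 in Mut6 and 0.04 in Mut7. In wild type of batch 1 the median of the 117 genes was 0.29 in WT1, -0.07 in WT2, -0.24 in WT3 and -0.23 in WT4. WT2 thus did not stand at the high level there, as it did in the group of 108. In batch 2 this median was -0.23 in WT00, -0.35 in WT23 and 0.18 to 0.23 in WT20, WT21 and WT24.

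**Figure D4:**
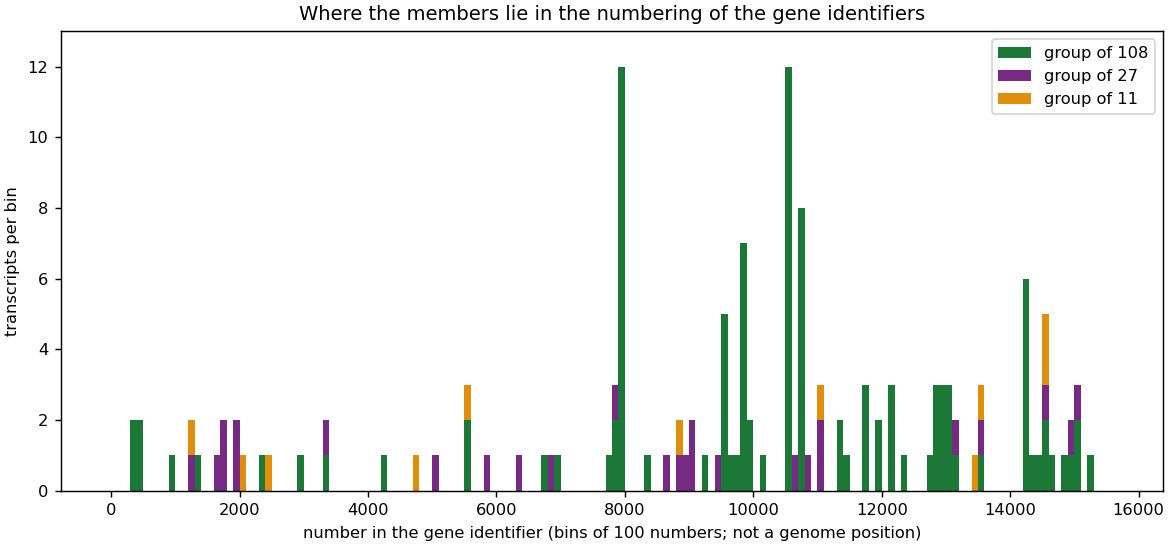
Number of members per 100 identifier numbers (x axis: the number in the gene identifier; stacked bars: the groups of 108, 27 and 11). Members of the group of 108 pile up in a few bins, up to 12 per bin, while those of the group of 27 are scattered.

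The group of 27 held the members of ranks 1, 2, 3 and 5 in spread and followed another order of birds. A306_00013576, of rank 1, stood at 12.6 CPM in WT1, 92.5 in WT2, 35.7 in WT3 and 40.6 in WT4. In batch 2 it stood at 597 CPM in WT00, 41.1 in WT20, 48.3 in WT21, 85.9 in WT23, 200 in WT24 and 251 in the carrier. Its recessive red values were 51.9 CPM in Mut1, 14.2 in Mut3 and 123 in Mut4, then 156 in Mut6, 147 in Mut11 and 179 in Mut12, and 46.9 in Mut5, 429 in Mut7 and 58.7 in Mut14. WT00 and Mut7 were thus the highest birds, and WT1 and Mut3 the lowest. A306_00006352, of rank 2, was highest in Mut12 at 45.5 CPM, WT00 at 45.1 CPM and Mut7 at 44.3 CPM, and lowest in WT1 at 1.86 CPM and Mut3 at 2.46 CPM.

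A306_00001245, the member closest to the mean of this group (r = 0.980), stood at 1.29 CPM in WT1, 4.77 in WT2, 5.45 in WT3 and 7.98 in WT4. It stood at 32.8 CPM in WT00, 5.78 in WT20, 7.79 in WT21, 11.1 in WT23 and 25.1 in WT24. A306_00001746, the next closest (r = 0.978), had a narrower range at a higher level, from 57.5 CPM in WT21 to 166 CPM in WT4 among homozygous wild-type birds and from 40.8 CPM in Mut14 to 164 CPM in Mut12 among recessive red birds. A306_00003389, of rank 5, fitted the group less well in the birds that were not used: its correlation with the rest of the group was -0.11 over the 9 recessive red birds, against a median of 0.90 over the 27 members. It was highest in Mut6 at 28.0 CPM, followed by WT00 at 19.3 CPM.

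Across the 27 members the medians of the birds also left gaps within a batch, at other places than in the group of 108. In batch 1 they ran from -0.85 in WT1 and -0.48 in Mut3 to 0.49 in WT4 and 0.53 in Mut4. In batch 2 they ran from -0.87 in Mut14 and -0.80 in Mut5 to 0.84 in WT00 and 0.86 in Mut12, with -0.04 in WT23 and -0.16 in Mut6 between them. No bird of batch 1 lay between -0.48 and 0.13, and none of batch 2 between -0.68 and -0.16. Per member, the median of the widest gap between neighbouring birds was 0.68 in batch 1 and 0.57 in batch 2. It was 0.64 and 0.56 in the group of 108, and 0.22 in both batches over all genes within the limits. The wild-type birds whose spread chose the members are among these birds, so wider gaps follow from the choice. As a share of the range of a batch, the widest gap had medians of 37.7% and 24.6% in the group of 27. These medians were 46.4% and 31.8% in the group of 108, and 39.3% and 27.9% over all genes within the limits. On this measure the gaps of the group of 27 were no wider than usual, and those of the group of 108 only somewhat wider. In batch 1 the widest gap had just Mut3, WT3 and WT4 below it in 65 of the 108 members. In batch 2 it had just WT00, WT23, Mut6 and Mut7 below it in 39 of the 108. Some birds changed places between the groups of 108 and 27 and others did not. WT1 was the highest bird of batch 1 in the median of the group of 108 and the lowest in that of the group of 27, and WT00 and Mut7 were low in the first and high in the second. Mut3 was low and Mut4 high in both. Mut7 was the highest e2 bird in 26 of the 27 members (96.3%), Mut12 the highest e1 bird of batch 2 in 23 (85.2%) and Mut4 the highest e1 bird of batch 1 in 21 (77.8%). Over all genes within the limits these birds were highest in 45.4%, 37.2% and 38.2%. All 3 were highest together in 19 of the 27 members (70.4%) and in 8.78% of the genes within the limits. This combination too was taken as the commonest in the group. The commonest over the genes within the limits was Mut4, Mut11 and Mut7, at 9.54%. At the low end, Mut3 was the lowest of its group in 23 of the 27 members (85.2%) and Mut6 in 20 (74.1%), the same birds as in the group of 108. Among e2 birds Mut14 was lowest in 18 (66.7%). Over all genes within the limits Mut3 and Mut6 were lowest in 38.9% and 51.5%, and Mut14 in 2163 of the 9019.

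The group of 11 was set apart mainly by WT21 and WT1. Its median deviation was -1.11 in WT21, the lowest bird of batch 2, and 0.97 in WT1, the highest bird of batch 1. A306_00004772, the member closest to the mean of this group (r = 0.968), stood at 20.1 CPM in WT1, 10.9 in WT2, 6.09 in WT3 and 6.58 in WT4, and at 15.2 CPM in WT00, 9.32 in WT20, 2.82 in WT21, 14.3 in WT23 and 14.6 in WT24. A306_00011067, the next closest (r = 0.944), had 10.9 CPM in WT21 and 20.8 to 45.2 CPM in the other homozygous wild-type birds of batch 2. The profiles held together less well in the recessive red birds. The correlation of A306_00004772 with the rest of the group over those birds was -0.395, and Mut5, Mut7 and Mut14 were at 14.1, 17.1 and 7.10 CPM.

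The group of 11 also held a pair of transcripts that moved almost identically. A306_00013535 ranged from 17.1 CPM in Mut7 to 898 CPM in WT23, and A306_00008843 from 24.5 CPM in Mut7 to 933 CPM in WT23. The ratio of the second to the first stayed between 0.93 and 1.53 in the 19 birds, with a median of 1.11, while A306_00008843 differed 38.2-fold between its lowest and highest bird. Whether the counting shared reads between them is not given in the sources used here, so they may not be separate measurements. They stood at 268 and 270 CPM in WT1 and 141 and 140 CPM in WT3. Among e2 birds they stood at 676 and 729 CPM in Mut14 against 123 and 189 CPM in Mut5.

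The 4 remaining members followed none of these patterns. A306_00001804, of rank 4, stood at 9.92, 3.25, 7.68 and 2.40 CPM in WT1 to WT4. In batch 2 it stood at 8.70 CPM in WT00, 1.24 in WT20, 9.00 in WT21, 8.90 in WT23 and 6.06 in WT24, and it ranged from 0.885 CPM in Mut12 to 10.8 CPM in Mut6 among recessive red birds. WT20 was thus the only homozygous wild-type bird of batch 2 with less than 6.06 CPM, and the carrier was near it at 1.44 CPM. A306_00007642 and A306_00009160 formed a group of 2 at mean levels of 6.38 and 12.2 CPM. A306_00006628 was the most abundant of the 150 at 660 CPM, from 445 CPM in WT2 to 1500 CPM in WT1 within batch 1.

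Whether the members also vary among recessive red birds was tested in those birds alone. edgeR's goodness-of-fit test compared, gene by gene, the differences between birds of the same recessive red group with those usual for genes of like abundance. All 150 members passed the filter on low counts, and 65 of them (43.3%) were called more variable at an adjusted p under 0.05 (edgeR, Benjamini-Hochberg over 12819 genes), against 4.54% of all genes tested. The calls included 42 of the group of 108, 14 of the group of 27, 6 of the group of 11 and 3 of the other 4. The deviance per degree of freedom, which measures this variation, had a median of 3.05 over the members and 0.532 over the genes within the limits. The calls rested in part on Mut7: without this e2 bird 27 members were called (edgeR, 448 of all 12976 genes tested). Members of the groups of 108 and 27 also varied together in these birds, so the calls are not independent of one another. A test of limma on the residual variance called 0 members and 0 genes in all, with an unadjusted p under 0.05 in 76 members and in 598 of the 12819 genes.

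The SD of log2(CPM + 0.5) showed the same in each recessive red group. Its median over the 150 members was 0.50 among the e1 birds sequenced in 2017, 0.48 among the later e1 birds and 0.74 among the e2 birds, against 0.15, 0.23 and 0.27 over all genes within the limits. Within the batches, added after the data had been seen, 16 members were called in batch 1 (edgeR, 209 of 12094 genes) and 32 in batch 2 (edgeR, 311 of 12535 genes). The member with the lowest p was A306_00013535, with a deviance per degree of freedom of 23.9 (edgeR, adjusted p = 3.28e-25). A306_00013576 had 20.5 (edgeR, adjusted p = 5.54e-21) and A306_00008843 had 19.7 (edgeR, adjusted p = 4.99e-20). In A306_00013535 and A306_00008843 Mut7 was the lowest bird, with 17.1 and 24.5 CPM, where Mut14 of the same group had 676 and 729 CPM. In A306_00013576 Mut7 was instead the highest e2 bird. The typical member of the group of 108 varied less: A306_00009841 had a deviance of 3.05 and A306_00007898 of 2.63 per degree of freedom, and neither was called (edgeR, adjusted p = 0.0973 and 0.198).

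**Figure D5:**
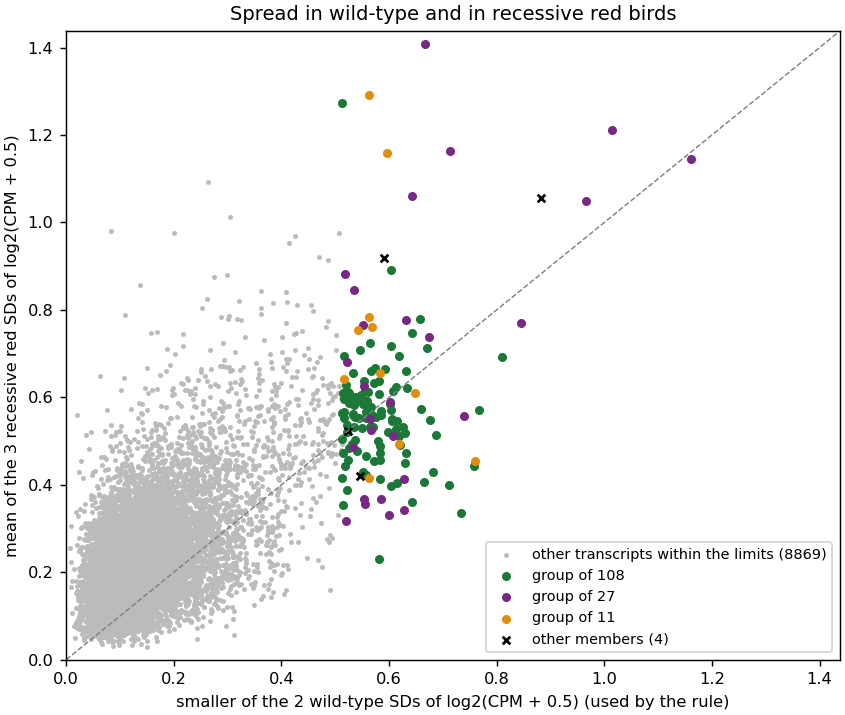
Mean of the 3 recessive red SDs of log2(CPM + 0.5) (y axis) against the smaller of the 2 wild-type SDs (x axis, used to choose the members), 1 point per gene within the limits, with the dashed line at equal values. The members lie to the right of 0.512 by choice and have recessive red SDs around 0.56, above most other genes.

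Between the wild-type birds of the batches 5 members were higher and 6 lower in batch 2, together 7.33% of the 150, against 31.7% of all genes (edgeR's quasi-likelihood test, 12573 genes, adjusted p under 0.05). Of all genes 15% were higher and 16.7% lower. The high spread that chose the members is in the same birds and lowers the chance of a call, so this lower share is not a result about them. All 5 higher members were of the group of 27, and the lower ones were 5 of the group of 108 and 1 of the group of 11. A306_00010855 had the highest fold change. It stood at 2.22, 5.04, 7.13 and 6.29 CPM in WT1 to WT4 and at 103, 6.09, 28.5, 22.9 and 63.6 CPM in WT00, WT20, WT21, WT23 and WT24, so that WT20 overlapped with batch 1. Its log2 fold change was 2.93 ± 0.70 (SE; edgeR, adjusted p = 0.0086; lowest value of batch 2 below that of 2 of 4 birds of batch 1).

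A306_00006853, also of the group of 27, rose without overlap. Wild-type birds of batch 1 stood at 6.46 to 14.7 CPM and those of batch 2 at 34.3 to 79.6 CPM. On the log2 scale the difference was 2.08 ± 0.34 (SE; edgeR, adjusted p = 0.00122). Separate birds gave the e1 comparison, with Mut1, Mut3 and Mut4 at 16.7, 9.24 and 15.8 CPM, and Mut6, Mut11 and Mut12 at 43.4, 42.4 and 90.3 CPM. In e1 the log2 difference was 1.99 ± 0.32 (SE; edgeR, adjusted p = 0.0423). Among the lower members A306_00009722 had the largest change in wild type, -1.96 ± 0.53 (SE; edgeR, adjusted p = 0.0154), from 7.70, 21.6, 3.04 and 5.53 CPM in WT1 to WT4 to 1.80 to 5.17 CPM in batch 2, with overlapping ranges. A306_00002058 followed at -1.38 ± 0.36 (SE; edgeR, adjusted p = 0.0127), from 7.42 to 24.5 CPM in batch 1 to 2.48 to 7.24 CPM in batch 2.

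Between the e1 birds of both batches 2 members were called, both higher in batch 2 (1.33% of the 150, against 1.55% of all genes; edgeR, 12621 genes). Of all genes 1.01% were higher and 0.539% lower. Beside A306_00006853 this was A306_00010656, at 41.0, 46.1 and 35.5 CPM in batch 1 and 68.5, 108 and 93.4 CPM in batch 2. Its log2 value rose by 1.05 ± 0.185 (SE) at an adjusted p of 0.0423 (edgeR). Over the group of 27 the median log2 fold change from batch 1 to batch 2 was 0.61 in wild type and 1.05 in e1, with 21 and 23 of the 27 members higher. Over the group of 108 it was -0.21 and -0.24. The medians over all genes within the limits were 0.02 and -0.01, with 4626 and 4456 of the 9019 higher. Members of a group were grouped for varying together, so a shared direction largely repeats the levels of the same few birds. The calls between batches moved with single birds: without WT2 or WT00, 4 and 5 members were called in wild type. The whole table then held 3069 calls of 12664 genes and 3167 of 12484, fewer than with all birds. Without Mut1, Mut4, Mut11 or Mut12, 0 members were called in e1, where the whole table then held 1 to 3 calls (edgeR; 25 to 36 members had an unadjusted p under 0.05). Without Mut3, 14 members and 227 of 12772 genes were called, and without Mut6, 12 members and 1161 of 12754 genes (edgeR). The share of members without Mut6 was thus near that of all genes.

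The alleles were compared in a fit of all birds of batch 2, wild type and carrier included. The spread of the homozygous wild-type birds in this fit chose the members, which lowers their chance of a call. A low count is therefore not a result about the members. None of the 150 members passed the test between e2 and e1 birds (edgeR, 13269 genes, 0.0226% of all genes called), 5 had an unadjusted p under 0.05, and DESeq2 called none. In the group of 27 the log2 fold change of e2 over e1 was below 0 in 25 members, with a median of -0.61. Over the genes within the limits it was above 0 in 4318 of 9019, with a median of -0.009. The 27 members were grouped for varying together, so their shared direction largely repeats the levels of the same few birds. Mut5 and Mut14 were the low e2 birds and Mut7 a high one, and the median SD within e2 was 0.86. In the group of 108 the median was 0.12, with Mut6 low among the e1 birds and Mut7 low among the e2 birds.

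Recessive red and wild-type birds were chosen to be alike in these members, and nothing is read from their comparison. None of the 150 was called (edgeR with the batch as a term, 13027 genes, against 4.3% of all genes), none had an unadjusted p under 0.05, and DESeq2 called none. In the authors' deposited table the lowest adjusted p of the 150 members was 0.382 for its comparison.

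The carrier WT22, which gave no spread to the choice, stood at the high level of the group of 108, with a median deviation of 0.35 and 102 of the 108 members above the batch mean. In the group of 27 its median was 0.40, below WT24 at 0.63 and WT00 at 0.84. It lay outside the wild-type range of batch 2 (5 birds) in 23 of the 150 members (15.3%), against 19% of all genes within the limits. It was above the range in 21 members (12% of the genes within the limits) and below it in 2 (7.04%). In the group of 27 it lay outside for 0 members. The members were chosen for a high spread in these 5 wild-type birds, which widens the range. The share of members outside it is therefore not a result about the carrier. A single carrier allows no test.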

How the data were processed

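Raw counts of every gene in the 19 birds were deposited in 1 table. The authors also deposited in it log2 fold changes with standard errors, test scores, p-values and a mean normalised signal, per the file headers. The submitters' processing notes name DESeq2, with no version. The gene models are headed Cliv2.1, whereas the sources used here do not give the aligner, the counting program or the use of strand. Totals of 13559606 to 23168538 counts per bird set the precision.

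Groups follow the genotype labels. CPM, SDs and correlations were computed from the deposited counts. Tests used edgeR 4.0.16 in R 4.3.3 on the whole table (filterByExpr, TMM scaling, Benjamini-Hochberg, threshold 0.05): glmFit with trended dispersion and gof for the spread among recessive red birds, and glmQLFit and glmQLFTest for comparisons of groups, with the SE as the log2 fold change over the root of the F statistic. DESeq2 1.42.0, limma 3.58.1, other filters, scalings and birds left out were alternatives. The tests were checked on counts simulated at the trended dispersion. The spread test recovered 44% of genes planted at 4 times that dispersion and 78% of those at 10 times. Recovery of planted 2-fold changes between groups ran from 61% (e2 against e1) to 87% (recessive red against wild type). Members were chosen for a high spread, so these shares need not hold for them. Each bird was 1 library, so p-values cover differences between birds, and technical variation is not separated from them.

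The members and all lists were chosen with earlier results of these data known. Members were named as the 6 with the highest spread, those at the limit of the list, the 2 closest to the mean of each group of 10 or more, the 3 with the lowest p for spread, and up to 2 higher and 2 lower per comparison. A306_00007642, A306_00009160, A306_00006628 and the ratio of A306_00008843 to A306_00013535 were added after their values were seen. Planned lists of marker genes could not be used, as 0 identifiers could be named.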

Additional observations from a re-analysis of the deposited data

Results flagged for a closer look

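Over 52 checks of single birds within the wild-type groups, 2 birds stood apart from the others. Chance alone would flag about 1 in 20 groups, and 2 of 52 is no more than that share. The checks covered the named members, the medians of the co-variation groups, the summed level of the members and the total counts. WT20 was lowest in A306_00001804 at 0.80 on the log2(CPM + 0.5) scale, where the other homozygous wild-type birds of batch 2 lay between 2.71 and 3.25. WT21 was lowest in A306_00002058 at 1.58, where the others lay between 2.61 and 2.95. Both transcripts were chosen for a high spread in these birds.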

How the results depend on the processing

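The list itself depended on its settings. Of the 150 members 61 were kept with the median absolute deviation in place of the SD, 90 with a lower limit of 20 CPM, 91 with a ratio limit of 1, and 80 to 133 with a wild-type bird left out, the lowest without WT1. The cut into 4 or 10 groups or TMM scaling kept 84 to 108 members in the largest group, whose recessive red pairwise correlation of 0.532 became 0.827 with 10 groups. Members called for spread among recessive red birds numbered 65 (582 of all 12819 genes), against 40 at an edgeR adjusted p under 0.01 (365 of 12819). They numbered 0 with limma, which called 0 genes in all. In batches 1 and 2 alone they numbered 16 and 32 (209 of 12094 and 311 of 12535 genes). With a bird left out they numbered 27 to 63, the lowest without Mut7 (448 of 12976). The median SD of the 150 members, 0.572, became 0.417 without Mut7 and at most 0.625 with another bird left out. Calls between wild-type batches numbered 11 (3987 of all 12573 genes), against 7 with all 19 birds in 1 fit (3419 of 13420). With a bird left out they numbered 4 to 14, while 3069 to 3805 genes were called in all. These were not always the same members: 4 to 10 of the 11 were called again. Without WT1, 12 members were called, 5 of them among the 11. Calls between e1 batches numbered 2, against 4 with a stricter filter (381 of all 9051 genes), 20 with DESeq2 (1247 of 12357), 1 with all 19 birds in 1 fit (949 of 13420) and 0 to 14 with a bird left out. The count of 0 for e2 against e1 and for recessive red against wild type stayed 0 in every alternative run. With bird numbers shared in batch 1 as a replicate block, the count for recessive red against wild type was 0 as well. The choice gave the members alike phenotype means and a high spread in wild-type birds, which are in both fits. That these counts stayed 0 is therefore not a result about the members. Same-numbered birds did not deviate together (r = -0.15, -0.07 and -0.11). With groups of 3 and 4 birds, these values cannot show whether the numbers pair the birds. The lowest count of a member in a bird was 3, which limits the precision of that value.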

Other observations

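The patterns of the members reached beyond the list. Among the 8869 other genes within the limits, 309 (3.48%) followed the mean of the group of 108 with a correlation of at least 0.8 over the 9 homozygous wild-type birds, and their median spread was 0.25. Of these, 99 did so over the 9 recessive red birds too. The mean of the group of 27 was followed by 232 genes (2.62%) in wild type, of which 109 also followed it in recessive red, and that of the group of 11 by 89 genes (1.00%), of which 4 did. Over the recessive red birds alone, 155 (1.75%), 838 (9.45%) and 132 (1.49%) of the 8869 genes followed the means of the groups of 108, 27 and 11 at this limit. Over the recessive red birds the correlation with the group of 27 had a median of 0.21 over all 8869 genes, against -0.03 for the group of 108. These correlations are over 9 birds that share 1 total per library, and are given as a description.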
